A study of Mus musculus with 92 samples.

Results

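Esr1 encodes estrogen receptor alpha, and its transcript was followed here in livers of HET3 mice, a genetically heterogeneous stock bred from several inbred strains. It is 1 gene of the 17275 whose estimated counts could be assigned to libraries. It was picked on its deposited counts, with results of these data known, because its level was lower in 6-month females fed the Low Isoleucine diet than in their controls, so every Esr1 value from the 6-month Low Isoleucine or 6-month Control livers is given as a description with no test. The groups compared in the tests below are other animals: the 24-month females on all diets, and both ages on the Low Amino Acid diet. The edgeR tests still take their estimate of spread from all 46 female libraries. Those include the 6-month livers that led to the choice of the gene. All animals were HET3 mice whose livers were frozen after a 16-hour fast, and no other allele or agent is given. The female groups were Low Isoleucine (a cut in that single essential amino acid), Low Amino Acid (a cut in every amino acid) and Control. There were 8, 7 and 8 livers at 24 months and 7, 8 and 8 livers at 6 months in that order of diets. The sample labels put the start of feeding at 9 weeks for the animals killed at 6 months and at 6 months for those killed at 24 months, whereas the series text gives 13 weeks of feeding for both. Age, starting age and time on diet therefore cannot be told apart.

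Estrogen receptor alpha is a nuclear receptor that, when estradiol binds, pairs with itself, binds estrogen response elements in DNA and recruits coactivators or corepressors. In the liver it is the main estrogen receptor, made chiefly by hepatocytes, and it is known for lowering lipid synthesis, for raising several plasma proteins, and for crosstalk with the growth hormone pathway through STAT5. In female mice the hepatic receptor is also known to be activated by dietary amino acids.

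The gene (ENSMUSG00000019768) lies on the plus strand at chr10:4611593-5005614 in GENCODE M21 on GRCm38, with 13661 bases of merged exon sequence. No other annotated gene overlaps it, so its reads were not shared with an overlapping or antisense gene. RefSeq on GRCm38.p6 gives Esr1 a pair of annotated starts that lie far apart within the locus. The 250 bases before each are shown, 5′ to 3′ on the plus strand, because levels of the gene are what the results turn on and the starts differ in sequence. Capitals mark a TTCNNNGAA site, the palindrome bound by STAT5-type factors. The first window is chr10:4611739-4611988 and the second is chr10:4709908-4710157.
Esr1 upstream window 1: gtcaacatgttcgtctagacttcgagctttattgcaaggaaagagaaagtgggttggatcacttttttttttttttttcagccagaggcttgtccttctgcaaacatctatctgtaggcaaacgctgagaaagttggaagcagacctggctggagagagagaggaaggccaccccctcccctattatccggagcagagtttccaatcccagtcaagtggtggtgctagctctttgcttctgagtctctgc
Esr1 upstream window 2: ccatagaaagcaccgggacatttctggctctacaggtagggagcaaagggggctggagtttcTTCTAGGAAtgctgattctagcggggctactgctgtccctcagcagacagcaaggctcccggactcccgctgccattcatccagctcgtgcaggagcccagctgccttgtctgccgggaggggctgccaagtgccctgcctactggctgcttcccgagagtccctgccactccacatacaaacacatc
The first window has a GC content of 47.6% and the second of 59.6%, against a median of 52.4% over all windows of this length. TTCNNNGAA occurs in the second window only, starting at position -188 from the transcript start, and in 2306 of the 32851 windows of all genes (7.02%), searched on both strands. The full palindromic estrogen response element, an inverted pair of GGTCA motifs with a short spacer, occurs in neither Esr1 window and in 21 windows of all genes (0.0639%). The core nuclear receptor motif AGGTCA, which can overlap that element, occurs in neither Esr1 window and in 4607 windows of all genes (14.0%). These are matches of letters and were not tested for binding.

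The 46 female libraries used held 7819934 to 27556841 estimated counts over the assigned genes, with a median of 22578174, and all but the shallowest held at least 14286615. Levels below are given in CPM, which puts every library on a common total of 1000000 counts. Esr1 itself had 567 to 3418 estimated counts per library. A library labelled 6-month Low Isoleucine female was left out by rule before the fit, since Kdm5d, a Y-linked gene, stood at 50.8 CPM in it and at 0.639 CPM or less in the others. The 4 hepatocyte markers that could be measured summed to between 52230 and 160519 CPM per library. The neutrophil markers stood apart in some 24-month libraries of every diet. For named genes of the gene lists below, calls that were lost without those libraries are given beside the genes. Genes named only because they followed Esr1 were not examined in that way.

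Mean Esr1 level was lowest on Low Isoleucine, intermediate on Low Amino Acid and highest on Control at both ages. At 24 months the Low Isoleucine livers had a lowest, median and highest Esr1 level of 37.3, 55.9 and 64.4 CPM, the Low Amino Acid livers 55.5, 71.7 and 101.4 CPM, and the Control livers 46.2, 90.1 and 142.9 CPM. At 6 months the Low Isoleucine livers had 43.4, 50.9 and 65.2 CPM, the Low Amino Acid livers 57.6, 69.3 and 82.6 CPM, and the Control livers 68.5, 91.1 and 113 CPM. The Low Isoleucine values had the smallest SD in CPM at both ages, and the 24-month controls had the largest, running from a value among those of the Low Isoleucine livers to the highest of all.

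As means, Esr1 stood at 54.3 ± 9.26 CPM on Low Isoleucine (SD, n = 8), 75.5 ± 14.5 CPM on Low Amino Acid (n = 7) and 92.2 ± 33.0 CPM on Control (n = 8) at 24 months. At 6 months it stood at 52.2 ± 7.43 CPM on Low Isoleucine (SD, n = 7), 68.9 ± 7.77 CPM on Low Amino Acid (n = 8) and 91.1 ± 14.7 CPM on Control (n = 8). The coefficient of variation was 17.1%, 19.2% and 35.8% on Low Isoleucine, Low Amino Acid and Control at 24 months, and 14.2%, 11.3% and 16.2% in the same order at 6 months. The mean levels, from low to high, ran Low Isoleucine at 6 months, Low Isoleucine at 24 months, Low Amino Acid at 6 months, Low Amino Acid at 24 months, Control at 6 months and Control at 24 months. Neighbours within a diet differed by 2.05 CPM on Low Isoleucine, 6.62 CPM on Low Amino Acid and 1.04 CPM on Control, each less than the larger SD of the pair. The steps between diets, 14.6 CPM between 24-month Low Isoleucine and 6-month Low Amino Acid livers and 15.6 CPM between 24-month Low Amino Acid and 6-month Control livers, exceeded the larger SD of their pair (9.26 and 14.7 CPM). Both of these steps cross ages, and the second uses the 6-month Control livers, which had a part in the choice of the gene. The 24-month Control SD of 33.0 CPM enters neither step. The ranges of all 5 neighbouring pairs overlapped. In whole liver, fewer cells of a type and less Esr1 RNA per cell cannot be told apart.

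**Figure D1:**
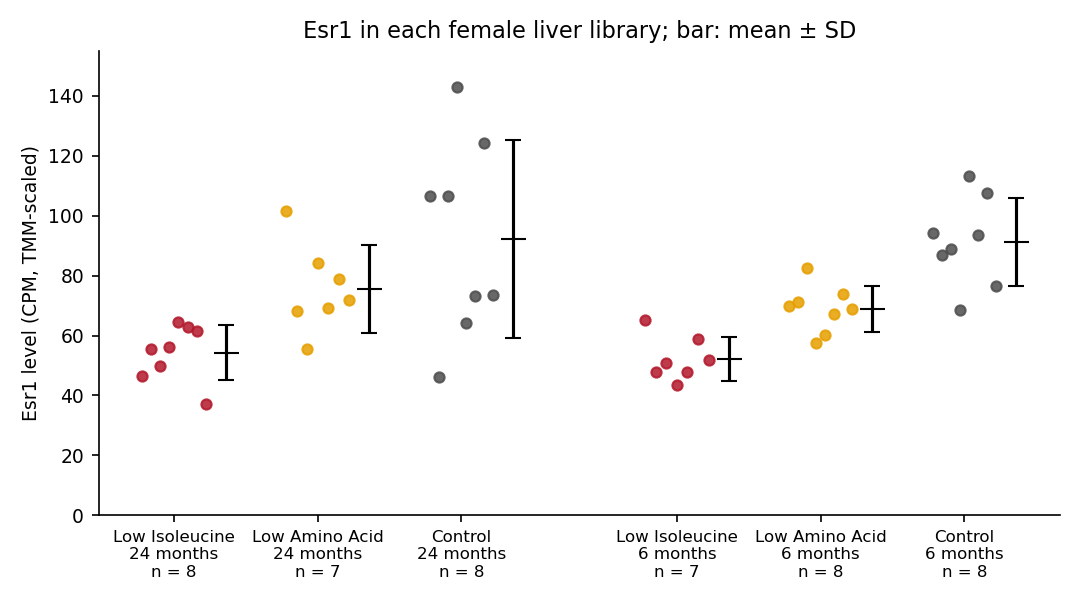
Esr1 level in CPM (vertical axis) for each female liver library (points), by diet and age, with the group mean ± SD beside the points as a black bar. The Low Isoleucine points lie between 37.3 and 65.2 CPM over both ages, and the 24-month Control points spread from 46.2 to 142.9 CPM.

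In 24-month females, Esr1 fell on Low Isoleucine to 0.588 times its Control level. All 8 Low Isoleucine livers lay below the Control median of 90.1 CPM, but only 1 lay below the lowest Control liver, so the groups overlap. The fitted log2 fold change was -0.77 (SE 0.150, 95% interval -1.07 to -0.46), and the adjusted p from edgeR's quasi-likelihood test was 0.00154 over 12617 genes. In that comparison 478 of 12617 genes (3.79%) were called lower and 340 (2.69%) higher, and the median log2 fold change of all genes was -0.02. An exact two-sided permutation test on mean log2 CPM over these livers gave p = 0.00808. The authors' deposited table of females gave Esr1 a log2 fold change of -0.78 with an adjusted p of 0.00414, in a comparison where it called 1588 of 17192 genes (9.24%).

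The call was lost in a fit of both groups alone, where the log2 fold change was -0.76 with an edgeR adjusted p of 0.0843 and 40 genes were called instead of 818. Leaving out each library in turn gave log2 fold changes between -0.86 and -0.65, with edgeR adjusted p-values between 0.000137 and 0.0054. Tags in the sample titles repeat an animal number under different letters within some groups, and the labels do not say what a shared number marks. It was not modelled, so the p-values may be too small if such animals are related. The edgeR p-values of the main fit use a spread shared by all 6 groups. In log2 CPM the SD of Esr1 was 0.546 in 24-month Control livers and 0.265 in 24-month Low Isoleucine livers. The SE was 0.197 in the fit of both groups alone, against 0.150 in the main fit.

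The 24-month Control livers also differed among themselves in inflammatory markers. By replicate their Esr1 levels were 106.6, 46.2, 106.6, 142.9, 64.3, 73.1, 124.2 and 73.6 CPM, and replicates 1 and 4 had the highest mean of the 10 neutrophil markers. Without those 2 livers, the Esr1 log2 fold change on Low Isoleucine was -0.59 with an edgeR adjusted p of 0.0178. Without the libraries highest in neutrophil genes of all diets, it was -0.63 with an edgeR adjusted p of 0.0149. Both settings were chosen after the data were seen.

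Esr1 on Low Amino Acid at 24 months was not distinguishable from Control. The log2 fold change was -0.29 (SE 0.154, 95% interval -0.60 to 0.02) with an edgeR adjusted p of 0.338. In this comparison 94 of 12617 genes (0.745%) were called. Of the Low Amino Acid livers 6 of 7 lay below the Control median, none lay below the lowest Control liver, and the exact two-sided permutation p was 0.345. Without the Control livers highest in neutrophil genes the log2 fold change was -0.11, with an edgeR adjusted p of 0.775. The authors' deposited table of females gave -0.25 with an adjusted p of 0.407, where it called 950 of 17192 genes (5.53%). This comparison and the one on Low Isoleucine share their Control livers.

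Set directly against each other at 24 months, the restricted diets gave Esr1 a log2 fold change, Low Isoleucine over Low Amino Acid, of -0.48 (SE 0.154, 95% interval -0.79 to -0.17), and the edgeR adjusted p of 0.107 missed the threshold. Of all genes 158 (1.25%) were called in this comparison. All 8 Low Isoleucine livers lay below the Low Amino Acid median of 71.7 CPM and 3 lay below the lowest Low Amino Acid liver. The exact two-sided permutation test of this single gene gave p = 0.00404, and limma's voom with quality weights gave a log2 fold change of -0.48 with an adjusted p of 0.0272, so this call depends on the tool and on whether the p is adjusted over all genes.

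Esr1 did not differ detectably with age on the only diet where age was tested. On Low Amino Acid, the diet whose libraries had no part in choosing the gene at either age, the log2 fold change at 24 months over 6 months was 0.13 (SE 0.154, 95% interval -0.18 to 0.44), with an edgeR adjusted p of 0.750 and an exact two-sided permutation p of 0.329. In that comparison 203 of all genes (1.61%) were called. As a description, the difference of 24 over 6 months was 0.05 (SE 0.155) on Low Isoleucine and 0.02 (SE 0.149) on Control. Without the 24-month Control livers highest in neutrophil genes it was -0.16 (SE 0.149) on Control. The Control livers differed more in spread than in mean, with an SD of 33.0 CPM at 24 months and 14.7 CPM at 6 months.

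The 6-month values that led to the choice of the gene are given without a test. Esr1 stood at -0.80 (SE 0.156) as a log2 fold change on Low Isoleucine over Control, and all 7 Low Isoleucine livers lay below the lowest Control liver, so these groups did not overlap. Of 12617 genes 3 (0.0238%) were called by edgeR in that comparison. The log2 fold change of Low Amino Acid over Control was -0.40 (SE 0.149), with all 8 livers below the Control median and 3 below the lowest Control liver. There edgeR called 0 genes (0.0%), against 1023 at an unadjusted p under 0.05, 8 by DESeq2 and 52 by voom. Low Isoleucine over Low Amino Acid was -0.40 (SE 0.155), with 5 of 7 livers below the lowest Low Amino Acid liver. On the log2 scale the Low Isoleucine difference from Control was thus -0.77 at 24 months and -0.80 at 6 months, in separate animals.

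Levels in male livers were not analysed here, and male differences come from the authors' deposited table, whose libraries and model are not stated. At 24 months the authors' deposited table of males gave Esr1 a log2 fold change of -0.34 on Low Isoleucine over Control, with an adjusted p of 0.511, where 12 of 17757 genes (0.0676%) were called. For Low Amino Acid over Control at 24 months the authors' deposited table gave -0.23 with an adjusted p of 0.687, where 10 genes (0.0563%) were called. At 6 months the authors' deposited table of males gave 0.01 on Low Isoleucine over Control (adjusted p 0.988), where 3747 genes (21.1%) were called. For Low Amino Acid over Control at 6 months the authors' deposited table gave 0.35 (adjusted p 0.313), where 2902 genes (16.3%) were called. At 24 over 6 months on Control the authors' deposited table of males gave 0.43 (adjusted p 0.156), where 3551 genes (20%) were called. So Esr1 was not called in males in any of these 5 comparisons, whether few or many genes were.

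Whether the sexes differ was tested at 24 months, where neither sex had a part in choosing the gene, by combining log2 fold changes and errors recovered from the authors' deposited table for females and that for males. The Low Isoleucine difference in females minus that in males was -0.44 (SE 0.274, 95% interval -0.98 to 0.11), and its p was 0.114, or 0.228 adjusted over both diets. For Low Amino Acid the difference between these sources, the authors' deposited table for either sex, was -0.02 (SE 0.290, 95% interval -0.59 to 0.56, p = 0.954). Neither passed the threshold, and the first interval holds both 0 and a much larger difference in females. This comparison was chosen after the data were seen.

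**Figure D2:**
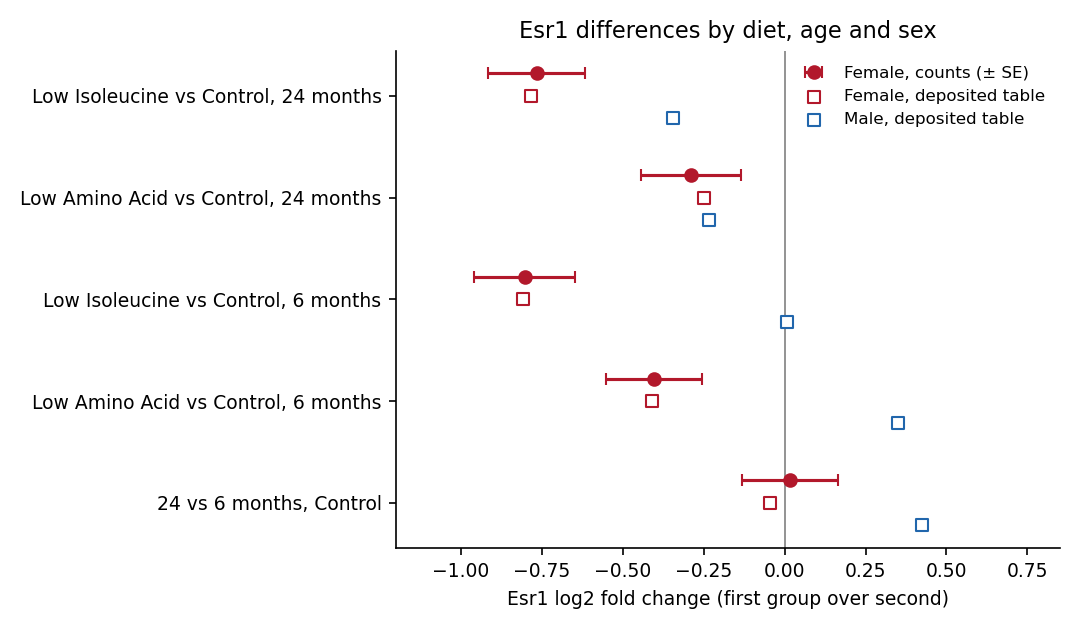
Log2 fold change of Esr1 (horizontal axis, group named first over group named second) for 4 diet comparisons and 1 age comparison. Filled circles with bars are female values from counts ± SE, open squares are values from the authors' deposited table for either sex. Both female series lie between -0.77 and -0.81 for Low Isoleucine at either age, and the male squares run from -0.34 to 0.43.

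Among nuclear receptors, Esr1 was a transcript of middle abundance per kilobase of merged exons. On that scale its mean level over all libraries was 5.32 CPM, rank 20 of the 39 receptors that passed the filter. The merged exons pool all annotated transcripts, and Esr1 ranked 13 of 39 by CPM without division by length. The liver regulators of xenobiotic response and hepatocyte identity stood far above it, with Nr1i3 (CAR) at 174 CPM per kilobase, Hnf4a at 162 and Rxra, the common partner receptor, at 111. The estrogen-related receptor Esrra stood at 4.32 CPM per kilobase. Esrrg (2.25), Esrrb (0.281) and the progesterone receptor Pgr (0.0591) were lower still on that scale. The second estrogen receptor, Esr2, was filtered out with 151 counts summed over all libraries, and the membrane estrogen receptor Gper1 stood at 0.310 CPM per kilobase.

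No other measured member of the listed estrogen, estrogen-related and sex steroid receptors passed the test on Low Isoleucine against Control at 24 months. Their median log2 fold change there, 0.36, had the opposite sign to that of Esr1, whereas at 6 months it was -0.12, with the same sign. At 24 months Esrrg stood at 14.4 CPM on Low Isoleucine and 8.78 CPM on Control (log2 fold change 0.72, edgeR adjusted p 0.147). Esrra stood at 19.1 and 16.3 CPM in the same order (0.23) and Esrrb at 2.31 and 1.81 CPM (0.35). Pgr, a classic estrogen target in reproductive tissue, stood at 0.536 CPM on Low Isoleucine and 0.412 CPM on Control, and Gper1 at 0.945 and 0.893 CPM. These differences were within their errors or missed the threshold over all genes.

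Over the whole nuclear receptor list Esr1 had the lowest log2 fold change of 39 on Low Isoleucine against Control at 24 months, followed by the adipogenic receptor Pparg at -0.59, which was not called (edgeR adjusted p 0.0921). Of the other 38 receptors 2 were called higher and 0 lower, with a median log2 fold change of 0.10. Thra, a thyroid hormone receptor, rose to 22.4 ± 3.77 CPM on Low Isoleucine, against 15.1 ± 2.59 CPM on Control (SD, n = 8 each), a log2 fold change of 0.56 (SE 0.138, edgeR adjusted p 0.0103). That call was lost without the Control livers highest in neutrophil genes (0.47, adjusted p 0.0590). Nr2f2, the orphan receptor COUP-TFII, rose to 48.0 ± 9.39 CPM on Low Isoleucine, against 35.4 ± 4.91 CPM on Control (0.44, SE 0.0972, edgeR adjusted p 0.00492). From the lowest upward, Esr1 ranked 5 of 39 on Low Amino Acid against Control and 3 of 39 on Low Isoleucine against Low Amino Acid at 24 months. The receptor called on Low Amino Acid against Control at 24 months was Nr5a2, a regulator of bile acid and cholesterol genes, at 0.40 (edgeR adjusted p 0.0275), and leaving out any of 5 livers (Low Amino Acid 5, 6 or 7, Control 5 or 7) removed that call. At 24 over 6 months on Low Amino Acid, Pparg was called at 0.94 (edgeR adjusted p 0.0213) and the xenobiotic receptor Nr1i2 at -0.49 (edgeR adjusted p 0.0383), and leaving out single livers removed the Pparg call in 5 cases and the Nr1i2 call in 10. Without the livers highest in neutrophil genes Pparg stood at 1.04 (adjusted p 0.0586) and Nr1i2 at -0.45 (adjusted p 0.124).

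**Figure D3:**
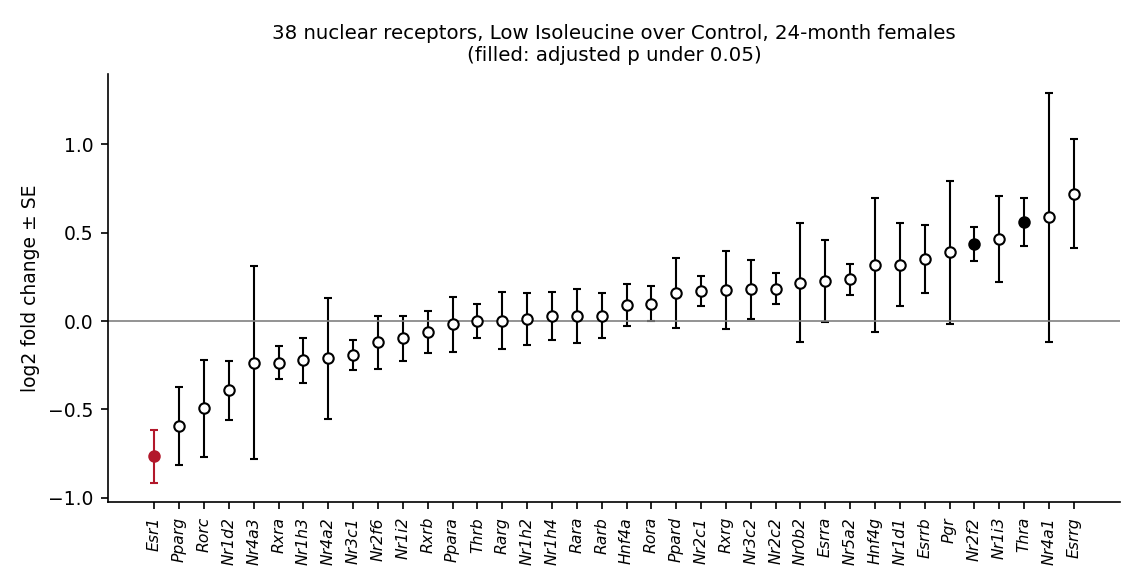
Log2 fold change ± SE of 38 of the 39 nuclear receptors in 24-month female livers, Low Isoleucine over Control (vertical axis), sorted from lowest to highest; filled symbols passed an adjusted p under 0.05 and Esr1 is in red. Esr1 (-0.77) lies lowest, Esrrg (0.72) highest, and Thra and Nr2f2 are the other filled symbols.

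A few coregulators that receptors such as Esr1 recruit were higher on Low Isoleucine. Of 21 measured coregulators 3 were called higher and 0 lower against Control at 24 months, beside 2.69% higher and 3.79% lower among all genes, with a median log2 fold change of 0.10, against -0.02 for all genes. Ncor1, a corepressor that recruits histone deacetylases, rose to 310 ± 27.3 CPM on Low Isoleucine, against 253 ± 46.5 CPM on Control (0.29, SE 0.0758, edgeR adjusted p 0.0142), and was not called without the Control livers highest in neutrophil genes (adjusted p 0.0784). The acetyltransferase Crebbp rose to 166 ± 12.9 CPM on Low Isoleucine, against 141 ± 9.73 CPM on Control (0.24, SE 0.0551, edgeR adjusted p 0.00573). Its relative Ep300 rose to 107 ± 8.43 CPM on Low Isoleucine, against 90.5 ± 11.6 CPM on Control (0.25, SE 0.0727, edgeR adjusted p 0.0322), a call that leaving out any of 6 livers removed (Low Isoleucine 1, 5 or 8, Control 3, 6 or 8). The pioneer factor Foxa1, which opens chromatin for the receptor, stood at 10.8 ± 1.39 CPM on Low Isoleucine and 8.05 ± 2.005 CPM on Control (0.42, edgeR adjusted p 0.0507). Crebbp was also called on Low Isoleucine against Low Amino Acid at 24 months (0.21, edgeR adjusted p 0.0497), a call lost on leaving out any of 35 of the 46 libraries and without the livers of all diets highest in neutrophil genes (0.23, adjusted p 0.0601). No coregulator was called on Low Amino Acid against Control or between ages on Low Amino Acid.

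Genes known to respond to estrogen in liver or in other tissues were mostly not called. On Low Isoleucine against Control at 24 months 2 of 20 were called lower and 0 higher, with a median log2 fold change of -0.12, beside backgrounds of 3.79% lower and 2.69% higher among all genes. Kng1, which encodes kininogen, the precursor of bradykinin, fell to 2461 ± 514 CPM on Low Isoleucine, against 3767 ± 1850 CPM on Control (-0.61, SE 0.169, edgeR adjusted p 0.0213). Kng1 has a near-identical neighbour, Kng2, between which the counting could split reads, and without Control replicate 3 its log2 fold change was -0.36 with an adjusted p of 0.0997. Xbp1, a transcription factor of the unfolded protein response, fell to 165 ± 14.2 CPM on Low Isoleucine, against 242 ± 110 CPM on Control (-0.56, SE 0.159, edgeR adjusted p 0.0258), and was not called without Control replicate 1 or replicate 5, with adjusted p-values up to 0.0988, nor without the Control livers highest in neutrophil genes (-0.49, adjusted p 0.0572).

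The other members named as liver targets missed the threshold. Igf1, the growth factor secreted in response to growth hormone, stood at 752 ± 137 CPM on Low Isoleucine and 1009 ± 332 CPM on Control (-0.43, edgeR adjusted p 0.0872). The prolactin receptor Prlr (-0.01) and the LIF receptor Lifr (-0.10) differed by less than their errors. In the Low Amino Acid comparison with Control at 24 months 1 of 20 was called, Apoa4, a lipid-binding apolipoprotein, which rose to 3226 ± 1154 CPM on Low Amino Acid, against 1259 ± 747 CPM on Control (1.36, SE 0.295, edgeR adjusted p 0.0211), and leaving out Low Amino Acid 5 or 6 or Control 1 removed that call (adjusted p up to 0.0613). Without the Control livers highest in neutrophil genes it stood at 1.15 with an edgeR adjusted p of 0.0605. At 24 over 6 months on Low Amino Acid 1 of 20 was called, the neutrophil granule gene Ltf (5.93, edgeR adjusted p 0.0257), which stood at -0.81 without the libraries highest in neutrophil genes. On Low Isoleucine against Low Amino Acid at 24 months 0 of 20 were called.

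Most enzymes that make and break down estrogens and related steroids were not called on Low Isoleucine. In 24-month livers 2 of 19 were called higher and 1 lower against Control, beside 2.69% higher and 3.79% lower among all genes, with a median log2 fold change of 0.04. Hsd17b11, a steroid dehydrogenase found on lipid droplets, rose to 228 ± 78.1 CPM on Low Isoleucine, against 110 ± 46.02 CPM on Control (1.05, SE 0.227, edgeR adjusted p 0.0039). Cyp17a1, the steroid hydroxylase and lyase on the way to androgens, rose to 149 ± 62.3 CPM on Low Isoleucine, against 54.0 ± 35.7 CPM on Control (1.47, SE 0.391, edgeR adjusted p 0.0175), and missed the threshold without the Control livers highest in neutrophil genes (1.23, adjusted p 0.0777). The aromatase gene Cyp19a1, whose product makes estradiol, was filtered out as low. None of the 19 was called in the other 24-month diet comparisons or between ages on Low Amino Acid.

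Sex-biased liver genes, which depend on the growth hormone pattern and in part on estrogen, were mostly not called, and their counts below stand beside 2.69% higher and 3.79% lower among all genes. On Low Isoleucine against Control at 24 months 2 of 18 female-biased genes were called higher, Cyp17a1 again and the fatty acid hydroxylase Cyp4a14, which rose to 5853 ± 2640 CPM on Low Isoleucine, against 1774 ± 1369 CPM on Control (1.72, SE 0.412, edgeR adjusted p 0.00886). Their median log2 fold change was -0.01. Of 14 male-biased genes 1 was called lower, the peroxisomal coenzyme A hydrolase Nudt7, which fell to 60.9 ± 7.24 CPM on Low Isoleucine, against 96.8 ± 40.3 CPM on Control (-0.67, SE 0.178, edgeR adjusted p 0.0174) and had an adjusted p of 0.0508 without Control replicate 6 and of 0.0606 without the livers of all diets highest in neutrophil genes. Their median was -0.35. Of the 12 genes of growth hormone signalling to STAT5 0 were called, with a median of -0.35: the receptor Ghr stood at -0.37 (edgeR adjusted p 0.147), and Stat5b at 0.10. The feedback inhibitor Cish stood at 9.11 ± 3.34 CPM on Low Isoleucine and 18.1 ± 11.2 CPM on Control (edgeR adjusted p 0.0879). At 24 over 6 months on Low Amino Acid the male-biased Hsd3b5 (-2.71, edgeR adjusted p 0.0342) and Slco1a1 (-2.09, edgeR adjusted p 0.0143) were called lower. The Slco1a1 call was lost without 24-month Low Amino Acid 4, and the Hsd3b5 call without any of 7 livers. Without the livers highest in neutrophil genes, neither was called (Slco1a1 -2.13, adjusted p 0.0547; Hsd3b5 -2.30, adjusted p 0.245).

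Many of these list calls depend on the model. Over all comparisons, 45 of 58 list calls were lost when the compared groups were fitted alone, 37 of 44 when each age was fitted by itself and 35 of 64 with voom and quality weights. At 6 months, neither Low Isoleucine nor Low Amino Acid against Control had a called gene in any of the lists. Only 3 (0.0238%) and 0 of all 12617 genes were called in those comparisons, in that order.

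Acute phase genes, which the liver makes in inflammation, fell in the same 24-month comparison as Esr1. At 6 months their median log2 fold change on Low Isoleucine over Control was 0.02, beside -0.80 for Esr1, as a description. At 24 over 6 months on Control their median was 1.72, against 0.03 for all genes. On Low Isoleucine against Control at 24 months 14 of 21 were called lower and 0 higher, beside 3.79% lower and 2.69% higher among all genes, with a median log2 fold change of -1.39. Saa2, serum amyloid A, stood at 16.6 ± 24.7 CPM on Low Isoleucine and 1208 ± 1951 CPM on Control (-6.23, SE 1.37, edgeR adjusted p 0.00424), and Orm1, a plasma glycoprotein, at 414 ± 150 and 1664 ± 1534 CPM in the same order (-2.01, SE 0.458, edgeR adjusted p 0.00598). Of the 10 neutrophil markers 3 were called lower, S100a8 (-3.67, edgeR adjusted p 0.0116), S100a9 (-3.16, edgeR adjusted p 0.0244) and Camp (-4.11, edgeR adjusted p 0.0262). Without the Control livers highest in those markers S100a8 stood at -1.21 (adjusted p 0.428) and S100a9 at -0.77 (adjusted p 0.641). The S100a9 call was lost without Low Isoleucine 1, Control 1 or Control 4, and the Camp call without Low Isoleucine 1, 4 or 8. The summed level of all 10 had a lowest, median and highest value of 1.69, 7.86 and 150 CPM on Low Isoleucine, 2.56, 5.17 and 494 CPM on Low Amino Acid and 5.91, 45.7 and 801 CPM on Control at 24 months. At 6 months all libraries stood between 1.12 and 6.67 CPM. Macrophage markers were not called (0 of 8), with a median log2 fold change of -0.75 at 24 months and -0.52 at 6 months. Their sum ran from 87.7 to 636 CPM on Low Isoleucine and from 183 to 1359 CPM on Control at 24 months. As a description, their Pearson's r with Esr1 was taken over deviations from the group mean. It ran from 0.53 (Timd4) to 0.67 (Cd68) at 24 months and from -0.10 (Cd68) to 0.19 (Clec4f) at 6 months. The part of neutrophil and macrophage markers in the Esr1 difference was not tested beyond the values without the livers highest in neutrophil genes.

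Some markers of hepatocyte zones were called, beside 2.69% higher and 3.79% lower among all genes. The pericentral stem cell marker Lgr5 rose on Low Isoleucine against Control at 24 months (0.66, edgeR adjusted p 0.0156; 1 of 8 pericentral genes), the periportal histidine ammonia-lyase Hal rose (0.98, edgeR adjusted p 0.0136) and the periportal Cyp2f2 fell (-1.24, edgeR adjusted p 0.0402), 2 of 6 in all. The Cyp2f2 call was lost on leaving out any of 9 livers. The Hal call was lost without the Control livers highest in neutrophil genes (0.78, adjusted p 0.0667), and the Lgr5 call without the livers of all diets highest in them (0.64, adjusted p 0.0653). Of the hepatocyte, cholangiocyte, endothelial, stellate and lymphocyte markers none was called in that comparison.

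Whether Esr1 went with inflammatory markers or depth from liver to liver was tested over the 23 libraries of 24 months, on deviations of each library from its group mean in log2 CPM. This choice of libraries was made after the data were seen. For the mean of the neutrophil markers Pearson's r was 0.52 and Spearman's rho 0.52, with two-sided permutation p-values within groups of 0.0208 and 0.0226, and neither passed the threshold once adjusted over 3 relations (0.0625 and 0.0677). Without the 2 libraries farthest from the median r was 0.39. For the mean of the acute phase genes r was 0.25 and rho 0.27 (adjusted permutation p 0.365 and 0.331), and r was 0.43 without the 2 farthest. For log2 library total r was -0.22 and rho -0.20 (adjusted permutation p 0.277 and 0.331). As a description with no test, r within 6-month libraries was 0.13 for neutrophil markers, which were near 0 there, 0.77 for acute phase genes and -0.28 for library total. Over all 46 libraries, as first planned, rho was 0.36 for neutrophil markers and 0.44 for acute phase genes, and r was 0.46 and 0.30. Both values of rho passed the threshold once adjusted, and neither r did. Those libraries include the ones that led to the choice of the gene, so these values are a description.

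Some genes followed Esr1 from animal to animal within groups. The measure is Pearson's r between deviations from the group mean in log2 CPM over the 46 libraries, given as a description for the 10 highest and the 10 lowest of 12616 genes. These values share libraries, scaling and depth. The median size of r over all genes was 0.174, with 227 genes above 0.5 and 156 below -0.5. Among the 10 highest were Actn1 (0.73), Plce1 (0.68), Fam47e (0.67), Dck (0.66), Ccne2 (0.65), Rps6ka5 (0.65), Rab39 (0.64), Gskip (0.64) and Rsu1 (0.63), and the next gene stood at 0.629 against 0.631 for the tenth. The 10 lowest were 2810004N23Rik (-0.67), Chkb (-0.66), Exosc2 (-0.66), Cluh (-0.65), Bace1 (-0.64), Ppm1g (-0.64), Psmd4 (-0.64), Ppp2r1b (-0.63), Pllp (-0.63) and Cpeb4 (-0.63), and the next gene stood at -0.627 against -0.631.

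**Figure D4:**
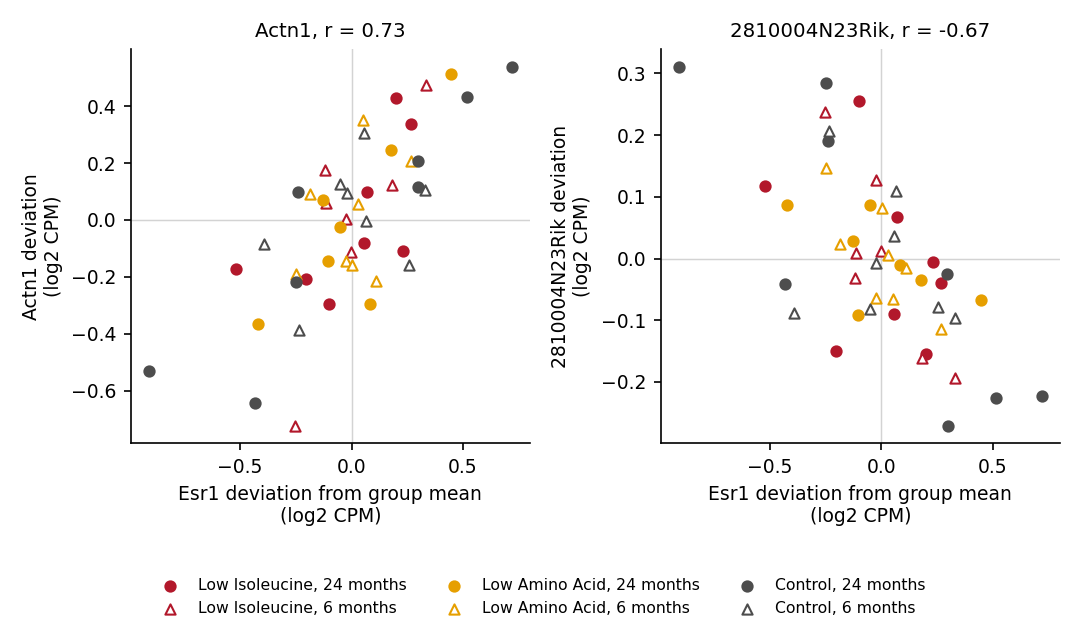
Deviation from the group mean in log2 CPM of Actn1 (left) and 2810004N23Rik (right) against that of Esr1, 1 point per library, coloured by diet with filled circles for 24 months and open triangles for 6 months. Actn1 rises with Esr1 (r = 0.73) and 2810004N23Rik falls (r = -0.67), and the points farthest out along the Esr1 axis are 24-month Control livers.

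Actn1, an actin-crosslinking protein, had r of 0.83 at 24 months and 0.51 at 6 months. Its mean level was 34.5 ± 6.64 CPM on Low Isoleucine, 45.3 ± 10.1 CPM on Low Amino Acid and 47.3 ± 13.3 CPM on Control at 24 months, with a log2 fold change on Low Isoleucine over Control of -0.46 (edgeR adjusted p 0.0520). Rsu1, a focal adhesion protein, had r of 0.66 at 24 months and 0.62 at 6 months, and its log2 fold change on Low Isoleucine over Control was -0.11 (edgeR adjusted p 0.507). Cluh, a protein that binds mRNAs of mitochondrial proteins, was the most abundant of the 20 at a mean of 535 CPM and ran against Esr1 at both ages (-0.67 at 24 months and -0.64 at 6 months).

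Of the 20 followers 3 were called on Low Isoleucine against Control at 24 months, beside 2.69% higher and 3.79% lower among all genes. Plce1, a phospholipase C, fell to 42.6 ± 7.15 CPM on Low Isoleucine, against 66.1 ± 21.7 CPM on Control (-0.64, SE 0.131, edgeR adjusted p 0.0025). Fam47e fell to 2.53 ± 1.11 CPM on Low Isoleucine, against 7.27 ± 4.12 CPM on Control (-1.53, SE 0.326, edgeR adjusted p 0.00334). Bace1, the beta-secretase, rose to 111 ± 13.6 CPM on Low Isoleucine, against 84.3 ± 17.8 CPM on Control (0.40, SE 0.0941, edgeR adjusted p 0.00749). On Low Amino Acid against Control at 24 months Ppm1g, a protein phosphatase, was called at -0.38 (edgeR adjusted p 0.0430). These calls of followers were not examined in other fits or with libraries left out. Among the 17 followers with an annotated window upstream of the start, AGGTCA occurred in Fam47e and TTCNNNGAA in Exosc2, and among the 19 estrogen-responsive genes with a window AGGTCA occurred in 6 (Ctsd, Greb1, Igf1, Lifr, Ltf, Pdzk1) and TTCNNNGAA in 4 (Agt, Hamp, Nr0b2, Prlr). The full estrogen response element occurred in none of them. Over all genes AGGTCA occurred in 14.0% and TTCNNNGAA in 7.02% of windows, but a gene can have several windows. These counts of genes therefore cannot be compared with those shares of windows.

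The order of followers carried over weakly between ages. The 20 genes highest with Esr1 in the 24-month libraries had a median r of 0.75 there and 0.12 in the 6-month libraries, where 14 of 20 kept their sign. The 20 lowest at 24 months went with a median of -0.13 at 6 months, 16 of 20 with the same sign. Over all genes the median at 6 months was -0.01, with 48.6% positive. Chosen at 6 months instead, the 20 highest had a median of 0.74 there and 0.18 at 24 months (15 of 20 with the same sign), and the 20 lowest -0.75 and -0.10 (13 of 20), beside a median of 0.02 and 52.0% positive over all genes.

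The nearest tested genes on the chromosome were not called. Rmnd1, a mitochondrial protein gene at chr10:4401915-4432388 on the minus strand, lies 179205 bases before Esr1, averaged 42.4 CPM and had a log2 fold change of 0.04 (SE 0.111, edgeR adjusted p 0.871) on Low Isoleucine against Control at 24 months. Myct1, at chr10:5593775-5606904 on the plus strand, lies 588161 bases after it, averaged 3.44 CPM and had 0.21 (SE 0.235, edgeR adjusted p 0.646).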

How the data were processed

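RNA from frozen livers was sequenced as stranded libraries with polyA selection, spread over 2 lanes that were merged per sample before expression was estimated, per the labels' protocols. GRCm38.p5, R 3.4.3, limma and edgeR are named without roles in the submitters' processing notes. No aligner is named in the sources used here. The authors deposited a gene table of estimated counts, not normalized, and for each sex a table of log2 fold changes, p-values, adjusted p-values and a score per gene, the F statistic across comparisons. Their fold changes were read as diet over control and old over young. The female diet ones were compared with the counts across genes (r = 0.88 to 0.91). The age ones were not compared with the counts, and across genes the male and female ones had r = 0.48.

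Of 51912 lines in the gene table, 17275 are filled under every column. The male columns do not line up with the genes there: the median estimated count of Alb, the albumin gene, was 1905880 under female columns and 75 under male ones. The 45 male columns were not used, nor was the female-labelled library with Y-linked counts. That left 46 of 92 libraries. Of the identifiers, 17251 were in GENCODE M21.

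Counts were rounded, filtered with filterByExpr, scaled by TMM and fitted with edgeR 4.0.16 (quasi-likelihood, a mean for each of 6 groups, R 4.3.3), with Benjamini-Hochberg adjustment over 12617 genes and a threshold of 0.05. Log2 CPM used a prior count of 2. Standard errors came from the fold change and the F of each contrast. The fit was tested on simulated counts with 200 changed genes. Alternatives were DESeq2 1.42.0, limma 3.58.1 (voom with quality weights), other scaling and filters, fewer groups, and each library left out. Exact permutation tests and correlations used Python 3.11.15, numpy 2.4.6, pandas 2.3.3 and scipy 1.17.1, with 100000 permutations within groups for correlations. Sex differences used standard errors recovered from the deposited p-values, with 39.6 (females) and 36.3 (males) degrees of freedom from the deposited F statistics. Upstream windows are 250 bases from RefSeq.

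Esr1, the gene lists and the tests were chosen with earlier results of these data known. Genes named are Esr1, the 10 highest and 10 lowest followers, list genes past the threshold (at most the 4 of largest fold), the receptor family and the nearest tested neighbours. Some list genes outside that rule (Foxa1, Igf1, Prlr, Lifr, Ghr, Cish, Stat5b, and the receptors used as scale) were named after their values were seen. Some list genes and followers are not reported here. The precision of a value is limited by 7819934 to 27556841 estimated counts per library.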

Additional observations from a re-analysis of the deposited data

Results flagged for a closer look

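Single libraries stood apart from their group for 3 of the genes that followed Esr1, among 60 groups of 7 or 8 libraries examined, where chance gives about 1 in 20. Plce1 was at 59.8 CPM in replicate 5 of the 24-month Low Isoleucine livers, and the next highest in that group was at 43.1 CPM (a gap of 0.735 of the group's range). That library had the lowest depth of all, 7819934 estimated counts. Exosc2 was at 15.05 CPM in replicate 3 of the 24-month Low Isoleucine livers, with the next at 12.5 CPM (0.542). Fam47e was at 0.989 CPM in replicate 5 of the 24-month Control livers, with the next lowest at 4.31 CPM (0.550). No Esr1 level stood apart in this way in any of its 6 groups. Outside the comparisons, the Y-linked Kdm5d was at 50.8 CPM in the 6-month Low Isoleucine library left out, and the highest value in any other female library was 0.639 CPM.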

How the results depend on the processing

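The Esr1 difference on Low Isoleucine against Control at 24 months kept its direction and its call in every setting but the fit of the compared groups alone (-0.76, edgeR adjusted p 0.0843). Low Isoleucine against Low Amino Acid at 24 months passed the threshold with voom (-0.48, adjusted p 0.0272) and in the single-gene permutation test (-0.47, exact p 0.00404). With each library left out in turn, Esr1 stayed at -0.86 to -0.65, -0.39 to -0.17 (Low Amino Acid) and -0.54 to -0.39 (Low Isoleucine over Low Amino Acid) at 24 months, at -0.86 to -0.75, -0.45 to -0.35 and -0.46 to -0.36 at 6 months, and at 0.01 to 0.12, 0.05 to 0.19 and -0.10 to 0.12 between ages on Low Isoleucine, Low Amino Acid and Control.

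Counts of called genes moved more, and the cause was not tested. Low Isoleucine against Control at 24 months (818 genes) gave 40 with the compared groups alone, 188 with libraries of the same age, 526 without both neutrophil-high Control livers, 512 without those of all diets, and 555 to 1007 with a library left out. Low Amino Acid against Control at 24 months (94) gave 297 by DESeq2, 4, 3 and 481 (compared groups, same age, neutrophil-high of all diets out) and 15 to 265. Low Isoleucine against Low Amino Acid at 24 months (158) gave 102 unfiltered, 329 by DESeq2, 832 by voom, 75, 16 and 67 to 261. At 24 over 6 months on Low Amino Acid (203) it was 332 by DESeq2, 467 by voom, 330 with compared groups alone, 28 without neutrophil-high livers and 56 to 261. At 6 months, Low Isoleucine against Control (3) gave 38 by DESeq2, 72 by voom, 25, 66 and 0 to 6; Low Amino Acid against Control (0) gave 8, 52, 5, 6, 4 without neutrophil-high livers and 0 to 7; Low Isoleucine against Low Amino Acid (2) gave 18, 130, 200, 201 and 1 to 3. Without the neutrophil-high livers of all diets, Ltf (-0.81, adjusted p 0.887) and Ngp (-0.85, adjusted p 0.888) turned sign at 24 over 6 months on Low Amino Acid, as did Saa3 (0.18, adjusted p 0.881) on Low Isoleucine over Low Amino Acid. Of the 20 followers, 9 were kept when ranked by Spearman's rho, 0 from 6-month libraries alone, 7 from 24-month libraries alone and 4 without the 24-month Control livers. No paired analysis was possible because the labels carry animal tags and no replicate numbers shared between the groups compared.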

Other observations

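Genes of the integrated stress response, which cells switch on when amino acids run short, were described beside Esr1 in the same fit. On Low Isoleucine against Control at 24 months 4 of 20 were called lower and 1 higher, beside 3.79% lower and 2.69% higher among all genes, with a median log2 fold change of -0.47. The glutathione-degrading enzyme Chac1 fell (-2.82, edgeR adjusted p 0.00321), as did the translation repressor Eif4ebp1 (-0.57, edgeR adjusted p 0.0120). The central transcription factor Atf4 fell (-0.44, edgeR adjusted p 0.0208), a call lost without Control replicate 1 or 5, and it also fell on Low Amino Acid against Control at 24 months (-0.64, edgeR adjusted p 0.0166). Asparagine synthetase Asns was called at -2.80 (edgeR adjusted p 0.0382), which was -0.67 (adjusted p 0.619) without Control replicate 3 and was not called without any 1 of 8 livers. Vldlr, a lipoprotein receptor, rose (1.66, edgeR adjusted p 0.0106), a call lost without the Control livers highest in neutrophil genes (1.41, adjusted p 0.0530). None of the 20 was called at 6 months on Low Isoleucine or Low Amino Acid against Control. Of all 12617 genes only 3 (0.0238%) and 0 were called there, in that order of diets.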
